A study of Saccharomyces cerevisiae with 3 samples.

Results

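The genes described here encode the aminoacyl-tRNA synthetases of Saccharomyces cerevisiae, the enzymes that load each transfer RNA with its amino acid. They were chosen by open reading frame (ORF) name, as the nuclear genes for the cytosolic and mitochondrial synthetases plus ARC1, and make up 36 of the 6207 ORFs in the deposited table. The cytosolic list holds 22 genes, ARC1 included. The other 14 are the mitochondrial enzymes and GRS2, a second glycyl-tRNA synthetase gene. All 36 ORF names matched a locus tag of the RefSeq gene table of assembly R64, which gave the gene symbols. YHR020W and YDR341C, for the prolyl and arginyl enzymes, carry no other symbol there.

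A synthetase activates its amino acid with ATP and joins it to the matching tRNA, which elongation factor 1A then carries to the ribosome. Synthetases fall into class I and class II, which differ in the fold of the catalytic domain. Mitochondria translate a few respiratory chain proteins with their own tRNAs, and most of their synthetases come from separate nuclear genes. A few genes, among them VAS1, ALA1, GRS1, HTS1 and CRS1, supply both compartments from a single locus through alternative starts.

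Treated and untreated cells were of the same strain, labelled MID2extWSC1cyt, in the haploid laboratory background BY4741. The name joins MID2 and WSC1, genes for cell wall stress sensors, and the labels do not describe the construct further. Cultures in YEPD, a rich glucose medium, were kept at 24 °C, set to an optical density of 0.2, grown on for 2.5 h by the design text or 2 h by the sample labels, and then split. One portion was left untreated and the other received 15 ng/ml of caspofungin, an inhibitor of cell wall glucan synthesis, for 2 h. Each 2-colour array set the RNA of the treated portion against that of the untreated one, so the design asks which transcripts differ between treated and untreated cells. Of the 4 arrays planned by the labels (2 cultures, 2 hybridizations each with the dyes exchanged), arrays 1, 2 and 4 were analysed here. Caspofungin RNA was in Cy3 on array 1 and in Cy5 on arrays 2 and 4. Arrays 2 and 4 have the same dye order and so come from different cultures. Array 1 came from one of those cultures, which of them is not labelled, so the spread between arrays may be partly technical.

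Values are log2 ratios as deposited, and the direction of the ratio was not stated. Array 1 correlated positively across all ORFs with array 2 (Pearson's r 0.44, 2818 ORFs) and with array 4 (r 0.39, 745 ORFs), and its values were therefore read as running the same way as theirs. A positive value was then taken, without a label that says so, to mean more transcript with caspofungin. The correlations would be the same if every array ran the other way, so they do not settle this. If the sign of array 1 was not adjusted for its dyes, the caspofungin and dye contributions would exchange places, and the 2 cannot be told apart from these files. Signs are therefore given on the deposited scale. The arrays were not centred on 0: the median over all ORFs was −0.24 on array 1 (3748 ORFs with a value), −0.14 on array 2 (2833 ORFs) and −0.93 on array 4 (855 ORFs). A value is also described by whether it lay above the median of its own array, which does not depend on centring. What the probes cover, and why cells of the table are empty, were not given in the sources used here. In RNA from whole cultures, fewer cells with a transcript and less transcript per cell cannot be told apart.

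The cytosolic synthetase genes were measured more often than the mitochondrial ones. Of the 22 cytosolic genes, 21 had a value on array 1 (95.5%), 19 on array 2 (86.4%) and 12 on array 4 (54.5%). Of the other 14 genes, 9 had a value on array 1 (64.3%), 5 on array 2 (35.7%) and 1 on array 4 (7.14%), against 60.4%, 45.6% and 13.8% of all ORFs. CDC60 (YPL160W) for leucine was the 1 cytosolic gene that none of the 3 arrays measured. In the other list 5 were unmeasured, namely MSY1 (YPL097W), MSR1 (YHR091C), MSK1 (YNL073W), MST1 (YKL194C) and DIA4 (YHR011W), for tyrosine, arginine, lysine, threonine and serine. Statements about values cover the measured genes alone, and the filter behind the empty cells was not given.

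**Figure D1:**
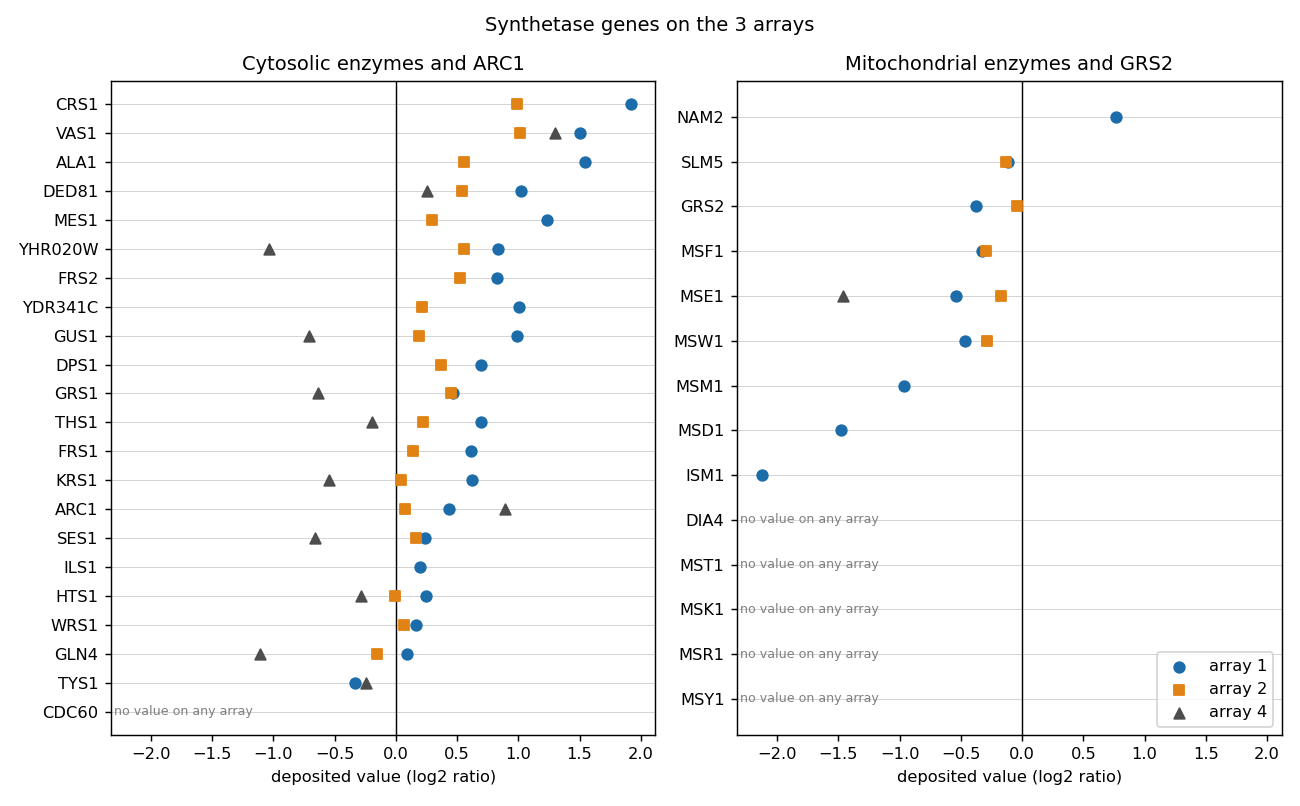
Deposited log2 ratio (x axis) of each of the 36 genes (y axis) on array 1 (circles), array 2 (squares) and array 4 (triangles), with the cytosolic list on the left and the other list on the right, each ordered by the mean of its values on arrays 1 and 2 and with unmeasured genes at the bottom. On arrays 1 and 2 most cytosolic genes lie right of 0 and most mitochondrial ones left of it, while 9 of the 12 cytosolic values on array 4 are negative.

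On arrays 1 and 2 the cytosolic genes were nearly all positive and those of the other list nearly all negative. On array 1, 20 of the 21 measured cytosolic genes were positive (36.1% of all ORFs were), with values from −0.33 to 1.92 and a median of 0.70, and 6 were at least 2-fold from equality (19.7% of all ORFs). On array 2, 17 of 19 were positive (33.4% of all ORFs), from −0.16 to 1.02 with a median of 0.22, and 1 was at least 2-fold (3.14% of all ORFs). In the other list 8 of 9 were negative on array 1 (63.8% of all ORFs), with a median of −0.47, and 5 of 5 on array 2 (66.6% of all ORFs), with a median of −0.17. The share for the cytosolic genes is therefore far from that of all ORFs, while that of the other list lies on the side where most ORFs lie. Array 4 differed in sign but less in order: 3 of its 12 cytosolic genes were positive (19.1% of all ORFs) and 9 negative (80.8% of all ORFs), with a median of −0.41, yet 10 of the 12 lay above the median of that array. On arrays 1 and 2 the genes above the array's median were 20 of 21 and 18 of 19. At least 2-fold in size on array 4 were 3 of the 12 (54.4% of all ORFs), VAS1 upward and GLN4 and YHR020W downward. Relative to the median of that array, VAS1 stood at 2.23, GLN4 at −0.18 and YHR020W at −0.11.

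The mean of arrays 1 and 2 gave a value to 19 cytosolic and 5 other genes. These arrays hold the dyes in opposite order. A constant dye effect cancels in their mean only if the sign of array 1 was already adjusted for its dyes. If it was not, the mean keeps the dye effect and the caspofungin contribution cancels. The cytosolic median was 0.53, with 18 positive and 1 negative, against a median of −0.18 over all 2818 ORFs, of which 33.2% were positive. All 19 lay above that median, or 17 of 19 with the gene length trend described further on removed. The 5 other genes were all negative (66.8% of all ORFs), with a median of −0.31, and 1 lay above the median of all ORFs. As deposited the lists did not overlap among the genes with a mean. The lowest cytosolic mean was −0.031 (GLN4) and the highest of the other list was −0.12 (SLM5). After each array was centred on its median both of these means were positive (GLN4 0.11 and SLM5 0.022), and the lists did not overlap. With the length trend removed they did, at −0.30 for GLN4 and −0.26 for SLM5. On array 1 alone the lists overlapped as deposited, through NAM2 (0.77) and TYS1 (−0.33), which have no value on array 2. Both arrays were positive for 17 of the 19 cytosolic genes (20.5% of all ORFs), and both were negative for 5 of the 5 others (47.1% of all ORFs).

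**Figure D2:**
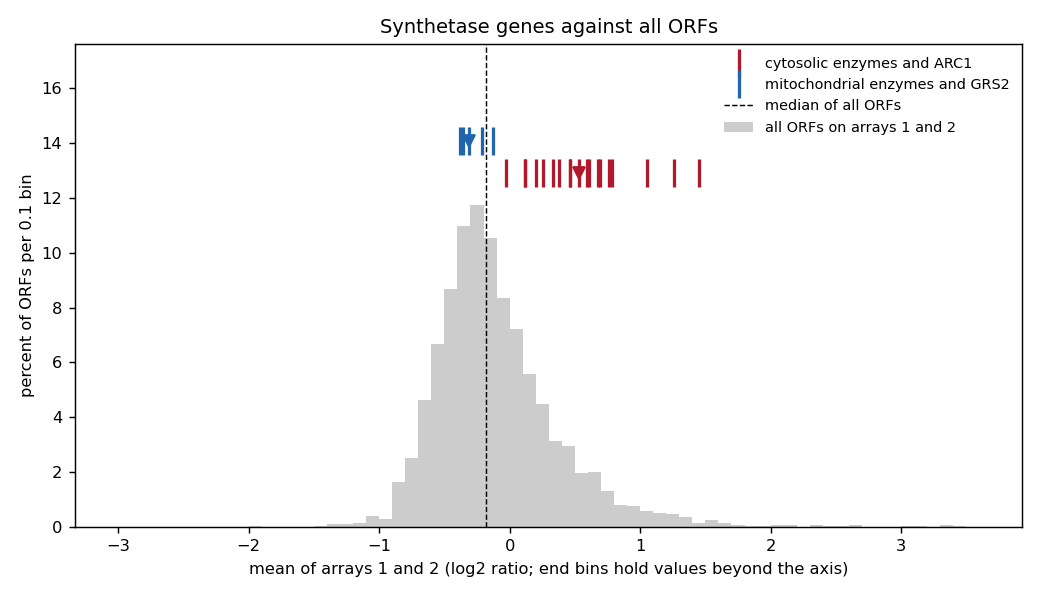
Distribution of the mean log2 ratio of arrays 1 and 2 (x axis) over 2818 ORFs as percent of ORFs per bin (grey bars, y axis), with a tick for each measured cytosolic gene (red) and each measured mitochondrial or paralogous gene (blue), triangles at the list medians and a dashed line at the median of all ORFs. The red ticks run from −0.031 to 1.45 and all lie right of the dashed line at −0.18, and the blue ones run from −0.38 to −0.12.

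In the limma test none of these genes was called. Over the 2818 ORFs on arrays 1 and 2, limma with Benjamini-Hochberg adjustment called 25 ORFs at an adjusted p under 0.05 (0.887%), and 0 of the 24 members were among them. At an unadjusted p under 0.05 there were 7 of 19 cytosolic genes, all positive (7.06% of all ORFs were positive at that level), namely CRS1, VAS1, ALA1, DED81, MES1, YHR020W and FRS2, and 0 of the other 5 (6.42% of all ORFs were negative at that level). Over the 723 ORFs with a value on all 3 arrays, the limma model, with 1 term for caspofungin and 1 for the dye, called 2 ORFs (0.277%), neither of them a member. None of the 12 members fitted there passed an unadjusted p under 0.05 (3.18% of all ORFs did, 1.24% as positive and 1.94% as negative). Both fits have 1 residual degree of freedom per gene and count the arrays as independent, so the standard errors understate the error if cultures vary.

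The highest values belonged to the genes for the cysteinyl, valyl and alanyl enzymes. CRS1 (YNL247W) had 1.92 on array 1 and 0.98 on array 2, with no value on array 4. Its mean was 1.45 ± 0.30 (SE, arrays 1 and 2, limma adjusted p = 0.0732), the rank of 33 from the top among 2818 ORFs. VAS1 (YGR094W) had 1.51, 1.02 and 1.29 on arrays 1, 2 and 4, and it was the single synthetase gene with values over 1 on every array. Its 3-array value was 1.33 ± 0.73 (SE, limma adjusted p = 0.868), and its mean over arrays 1 and 2 was 1.26 ± 0.27 (SE, limma adjusted p = 0.0795, rank 49). ALA1 (YOR335C) had 1.54 and 0.56 on arrays 1 and 2, with a mean of 1.05 ± 0.31 (SE, limma adjusted p = 0.216, rank 80). These 3 were the members with a mean of at least 1, that is 2-fold, which 3.09% of all ORFs reached. With each array centred on its median, CRS1 (1.60, limma adjusted p = 0.0202) and VAS1 (1.41, limma adjusted p = 0.0241) passed the threshold, as did 73 of the 2818 ORFs in all. With the gene length trend described further on removed, neither passed (limma adjusted p = 0.236 for CRS1 and 0.226 for VAS1).

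CRS1, VAS1 and ALA1 belong to the 5 cytosolic genes that also supply the mitochondrial enzyme. The other such genes had lower values. GRS1 (YBR121C), for glycine, had 0.47 and 0.45 on arrays 1 and 2 and −0.64 on array 4. HTS1 (YPR033C), for histidine, had 0.24, −0.0071 and −0.28 on arrays 1, 2 and 4. The median over the 5 was 1.05, from 0.12 for HTS1 to 1.45 for CRS1, so they span nearly the whole range of the cytosolic list. The 13 measured synthetases with no mitochondrial form had a median of 0.53, from −0.031 to 0.78. Over those 13 and ARC1 together it was 0.50. The 5 genes are also longer, with a median of 2304 bp against 1806 bp over all 16 cytosolic synthetases with no mitochondrial form. With the gene length trend described further on removed, CRS1, VAS1, ALA1, GRS1 and HTS1 had 1.17, 1.12, 0.84, 0.18 and −0.088. The part of length in this difference was not tested.

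The methionyl and glutamyl enzymes form a complex with the cofactor Arc1, which binds tRNA and raises their activity. MES1 (YGR264C) had 1.23 and 0.30 on arrays 1 and 2, with a mean of 0.76 ± 0.30 (SE, limma adjusted p = 0.335). GUS1 (YGL245W), for glutamate, had 0.99, 0.19 and −0.71 on arrays 1, 2 and 4. ARC1 (YGL105W) had 0.43, 0.074 and 0.89 there. The 3 genes were positive on arrays 1 and 2. On array 4, which gave no value for MES1, GUS1 was negative and ARC1 positive. ARC1 and VAS1 had the highest values of the cytosolic list on array 4, and with DED81 (YHR019C) they were the only cytosolic genes positive on all 3 arrays (7.61% of the 723 ORFs were).

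Among the class II enzymes, DED81 for asparagine stood highest after ALA1. It had 1.02, 0.54 and 0.25 on arrays 1, 2 and 4, a mean over arrays 1 and 2 of 0.78 ± 0.27 (SE, limma adjusted p = 0.307) and a 3-array value of 0.71 ± 0.73 (SE, limma adjusted p = 0.892). YHR020W, its direct neighbour on the chromosome, had 0.84 and 0.55 on arrays 1 and 2 but −1.04 on array 4, which is below that array's median. The 2 subunits of the phenylalanyl enzyme were both positive: FRS2 (YFL022C) had 0.82 and 0.53 on arrays 1 and 2, and FRS1 (YLR060W) had 0.62 and 0.14. DPS1 (YLL018C), for aspartate, had 0.70 and 0.37.

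THS1, KRS1 and SES1 were positive on arrays 1 and 2 and negative on array 4. THS1 (YIL078W), for threonine, had 0.70, 0.22 and −0.20. KRS1 (YDR037W), for lysine, had 0.62, 0.039 and −0.55. SES1 (YDR023W), for serine, had 0.24, 0.16 and −0.66. Each of the 3 lay above the median of each array. With array 4 in the fit their values were 0.35, 0.19 and −0.0050 (SE 0.73 each, 3 arrays), against means of 0.46, 0.33 and 0.20 on arrays 1 and 2.

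The remaining class I genes ranged from YDR341C down to TYS1. YDR341C had 1.00 and 0.21 on arrays 1 and 2, with a mean of 0.61 ± 0.29 (SE, limma adjusted p = 0.405). ILS1 (YBL076C), for isoleucine, had 0.20 on array 1 and no other value. WRS1 (YOL097C), for tryptophan, had 0.16 and 0.064 on arrays 1 and 2. GLN4 (YOR168W), for glutamine, had 0.094, −0.16 and −1.11 on arrays 1, 2 and 4, and was the lowest measured cytosolic gene on arrays 2 and 4. TYS1 (YGR185C), for tyrosine, had −0.33 on array 1 and −0.24 on array 4, and was the only cytosolic gene negative on every array that measured it. On the mean of arrays 1 and 2 the medians were 0.61 over 7 class I genes and 0.46 over 11 class II genes, and the class II values lay within the range of class I.

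The ORFs next to ILS1 and GLN4 on the opposite strand had lower values than these genes. YBL077W, which adjoins ILS1 in the numbering and is not in the RefSeq gene table, had −0.65, −0.51 and −3.15 on arrays 1, 2 and 4. YOR169C, which adjoins GLN4 and is likewise not in that table, had −0.68, −0.70 and −4.49. YDR024W, next to SES1 on the same strand and also not in the table, had −0.68 and 0.099 on arrays 1 and 2. Whether their probes overlap those of the synthetase genes was not tested.

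Counted over whatever arrays measured them, 12 of the 21 cytosolic genes were positive throughout, 1 was negative throughout and 8 were mixed. Of the 12, only VAS1, DED81 and ARC1 had a value on array 4. No share over all ORFs was counted this way. On arrays 1, 2 and 4, 36.1%, 33.4% and 19.1% of all ORFs were positive. After each array was centred on its median, 18 of the 21 cytosolic genes were positive throughout and 0 negative throughout. All 8 mixed genes were negative on array 4, and HTS1 and GLN4 were also negative on array 2. In the other list 1 gene was positive throughout and 8 were negative throughout. Of these 9, NAM2, ISM1, MSD1 and MSM1 had a value on array 1 alone. Most ORFs were negative too, 63.8% on array 1 and 66.6% on array 2. Relative to the medians of the arrays, 9 of the 11 cytosolic genes measured on all 3 arrays lay above each median (25.3% of the 723 ORFs did), the exceptions being GLN4 and YHR020W. The 3-array values were positive for 9 of these 11 genes (26.6% of all ORFs), with a median of 0.30 against −0.36 over the 723 ORFs. SES1 and GLN4 were negative (73.4% of all ORFs), and VAS1 alone reached 1 (3.73% of all ORFs). Without array 1 that cytosolic median was −0.14 and the one over all ORFs was −0.51.

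The mitochondrial genes with several values were close to one another. MSW1 (YDR268W), for tryptophan, had −0.47 and −0.29 on arrays 1 and 2. MSF1 (YPR047W), for phenylalanine, had −0.33 and −0.30. SLM5 (YCR024C), for asparagine, had −0.12 and −0.13. These genes stood near the median of their arrays, with SLM5 slightly above both medians and the others below both. MSE1 (YOL033W), for glutamate, was the only gene of the list on all 3 arrays, with −0.54, −0.17 and −1.46, each negative (45.4% of the 723 ORFs were on all 3) and below the array's median. Its 3-array value was −0.68 ± 0.73 (SE, limma adjusted p = 0.904), and its mean over arrays 1 and 2 was −0.36 ± 0.27 (SE, limma adjusted p = 0.518).

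On array 1 the widest values of the list came from genes that had no value on the other arrays. ISM1 (YPL040C), for isoleucine, had −2.12, MSD1 (YPL104W), for aspartate, had −1.48, and MSM1 (YGR171C), for methionine, had −0.97. ISM1 stood at percentile 1.07 of that array, MSD1 at percentile 4.98 and MSM1 at percentile 15.1. NAM2 (YLR382C), whose leucyl enzyme also takes part in splicing mitochondrial introns, had 0.77 at percentile 91.3 and was the single positive gene of the list. None of these 4 has a second value, so their spread between arrays is unknown.

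GRS1 and GRS2 form a paralogous pair in which GRS1 supplies the cytosolic and mitochondrial glycyl enzyme in growing cells. GRS2 (YPR081C) had −0.37 and −0.046 on arrays 1 and 2, against 0.47 and 0.45 for GRS1, and lay above the array's median on array 2 only. The copies are similar in sequence, so their spots may share part of their signal, which was not tested.

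Set side by side by amino acid, the cytosolic gene had the higher value in each pair that could be compared. The leucine pair could not be, because CDC60 was unmeasured. Its mitochondrial gene NAM2, at 0.77 on array 1, was the single positive gene of the other list. Array 1 measured both genes for 8 amino acids, and the cytosolic value was higher in 8 of 8, by 0.64 (tryptophan) to 2.32 (isoleucine) with a median difference of 1.33. On array 2 it was higher in 5 of 5, by 0.35 (tryptophan) to 0.67 (asparagine), with a median of 0.50. The medians cover different pairs. The largest differences on array 1, for isoleucine, methionine and aspartate (2.32, 2.20 and 2.18), rest on mitochondrial genes with a value on that array alone. The 5 pairs that array 2 also measured differed by 0.64 to 1.52 on array 1. Array 4 gave 1 pair, GUS1 and MSE1 for glutamate, with a difference of 0.75. The mean of FRS1 and FRS2 stood for the cytosolic phenylalanyl enzyme. A difference within an array does not depend on its centring, and arrays 2 and 4 have the same dye orientation, so the signs on arrays 2 and 4 do not depend on how array 1 is read. The 8 differences on array 1 would turn sign with its reading, and on arrays of a single dye order caspofungin and dye cannot be told apart. Genes are not replicates and the lists were known with earlier results of these data, so no test was made of this difference.

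**Figure D3:**
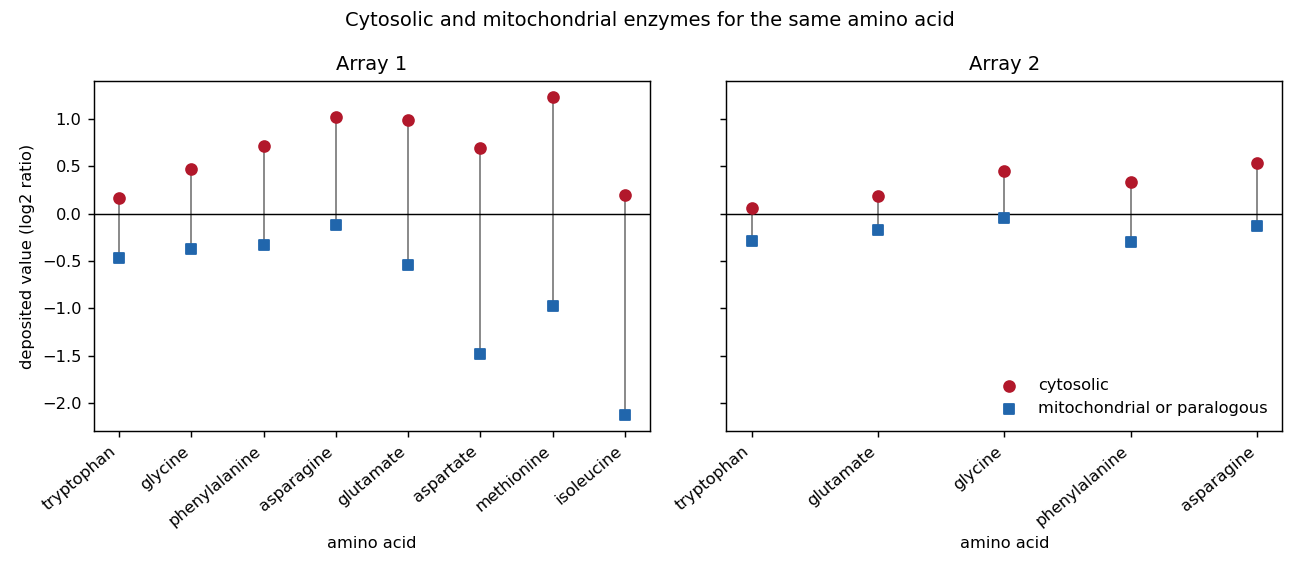
Deposited log2 ratio (y axis) of the cytosolic gene (circles) and of the mitochondrial or paralogous gene (squares) for the same amino acid (x axis) on array 1 (left, 8 amino acids) and array 2 (right, 5 amino acids), with a line joining each pair and FRS1 and FRS2 averaged. The circle is above the square in each pair, with differences of 0.64 to 2.32 on array 1 and of 0.35 to 0.67 on array 2. Leucine is absent because CDC60 had no value.

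Gene length moved with the values and with the lists. Across 2716 ORFs, log2 length and the mean of arrays 1 and 2 had a Pearson's r of 0.41 (Spearman's rho 0.51), and over the 19 cytosolic genes r was 0.60 (rho 0.53), as descriptions across genes that share the same arrays. On array 4 alone r was 0.012 over 810 ORFs. The median length was 1914 bp for the cytosolic list, 1669.5 bp for the other list and 1248 bp over all ORFs with a length. Both lists thus had longer genes than the median ORF. With the length trend removed from each array, which also centres it, the medians were 0.31 over the 19 cytosolic genes and −0.41 over the 5 others, where that of all ORFs was −0.025. CRS1 and VAS1 then had 1.17 and 1.12. HTS1 turned to −0.088, and HTS1 and GLN4 (−0.30) lay below the median of all ORFs.

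Across the cytosolic genes arrays 1 and 2 ranked the members alike, with r of 0.82 (rho 0.82, 19 genes), against 0.44 (rho 0.30) over all ORFs. All 19 had the larger value on array 1 (50.7% of all ORFs did). The SD over all ORFs was 0.81 on array 1 and 0.44 on array 2. Arrays 1 and 4 gave r of 0.43 (rho 0.31, 12 genes) and arrays 2 and 4 gave r of 0.50 (rho 0.30, 11 genes). These are descriptions across genes that share arrays, and perhaps cultures, and are not tests.

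The sign of the mean depended on how array 1 was read. With array 1 turned the other way the mean of arrays 1 and 2 was negative for all 19 cytosolic genes, with a median of −0.24, and positive for 4 of the 5 others, with a median of 0.091. CRS1 then had −0.47 and VAS1 −0.24. All 19 cytosolic genes lay below the median of all ORFs, which was −0.0041, where as deposited all lay above it.

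**Figure D4:**
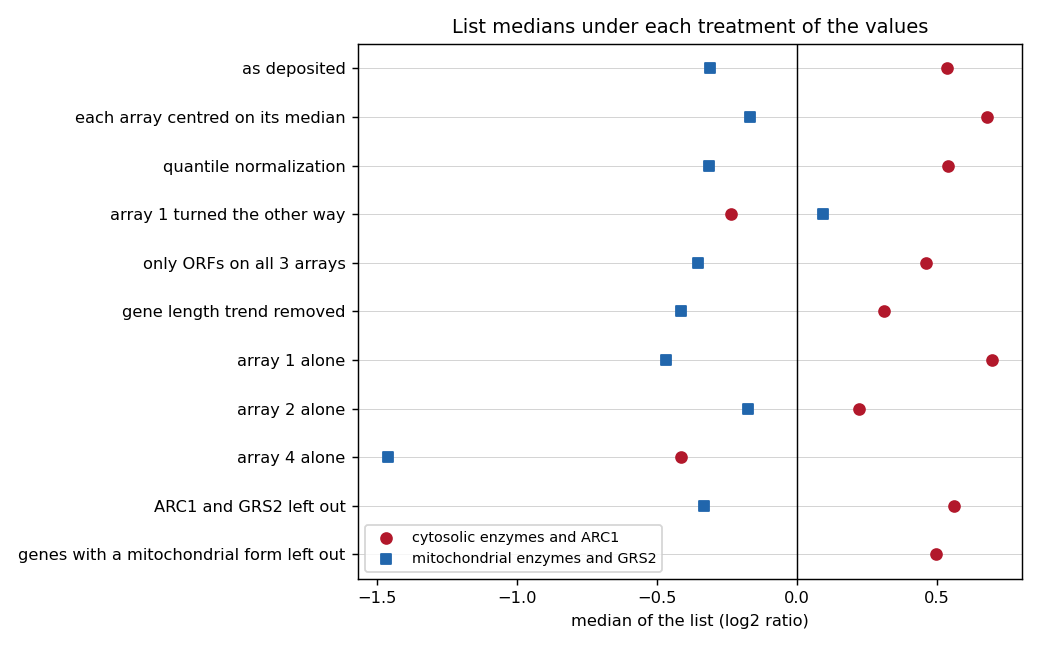
Median log2 ratio (x axis) of the measured cytosolic genes (circles) and of the measured mitochondrial or paralogous genes (squares) under each treatment of the values (y axis), starting from the mean of arrays 1 and 2 as deposited at 0.53 and −0.31. The circle lies right of the square in each treatment with both lists except with array 1 turned the other way (−0.24 and 0.091), and the cytosolic median is negative there and on array 4 alone (−0.41). The square is MSE1 only on array 4 alone and among ORFs on all 3 arrays.

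Other genes of the tRNA pathway, taken by group, were not as uniformly positive on arrays 1 and 2. Among genes that deliver charged tRNA or sense uncharged tRNA, the elongation factor 1A genes TEF1 and TEF2 had 0.55 and 0.73 on array 1, 0.072 and 0.078 on array 2, and 4.69 and 4.30 on array 4. They are near-identical copies and count as 1 observation. GCN2, the kinase that uncharged tRNA activates, had −0.79 and −0.24 on arrays 1 and 2, and GCN1, which it needs for this, had −1.25 and 0.063. GCN4, the transcription factor whose translation the kinase raises, had −0.19, −0.43 and −0.20. On the mean of arrays 1 and 2, limma called 0 of the 5 measured genes of this group, where 0.887% of all ORFs were called. The 2 above 0 were TEF1 and TEF2, and 3 were below 0, where 33.2% of all ORFs were positive.

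Genes of tRNA maturation and export lay near all ORFs. On the mean of arrays 1 and 2, 1 of 8 was positive (33.2% of all ORFs) and 7 were negative (66.8% of all ORFs), and the median was −0.20 against −0.18 over all ORFs. None of the 8 was called (0.887% of all ORFs). CCA1, which adds the terminal bases that synthetases charge, had a mean of 0.33. RPP1, a subunit of the RNase that trims the leading end, had −0.14, or 0.0055 after centring. TPT1 of tRNA splicing had −0.36 and LHP1, which binds precursor tRNA, had −0.29. The tRNA exporter LOS1 had −0.45, −0.0032 and −2.26 on arrays 1, 2 and 4.

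Genes for tRNA modification went both ways. Arrays 1 and 2 gave a mean to 28 of them, 12 above 0 (33.2% of all ORFs) and 16 below (66.8% of all ORFs), and the median was −0.096. None was called by limma (0.887% of all ORFs), with a lowest adjusted p of 0.0903 for TRM5. TRM5, a methyltransferase for guanosine next to the anticodon, had 1.03 and 1.24, with a mean of 1.13, and passed the threshold after centring (1.28, limma adjusted p = 0.0294). It did not pass with the length trend removed (0.99, limma adjusted p = 0.236). TRM1, which methylates guanosine in many tRNAs, had a mean of 0.83. TAD1, an adenosine deaminase of alanine tRNA, had −0.74, and TRM8, a methyltransferase subunit, had −0.67. PUS7, a pseudouridine synthase, and DUS3, a dihydrouridine synthase, had −2.36 each on array 4. Their means over arrays 1 and 2 were −0.19 and −0.043, and after centring that of DUS3 was positive (0.10). TRM5 and TRM1 therefore lay within the range of the cytosolic synthetases and TAD1 and TRM8 below it.

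The partners of the mitochondrial synthetases were negative where they were measured, as were most ORFs on arrays 1 and 2 (63.8% and 66.6%). HER2 and GTF1 belong to the amidotransferase that makes glutaminyl-tRNA in mitochondria, and MSS1 modifies mitochondrial tRNAs. HER2 had −3.12 and MSS1 −0.82 on array 1 alone. GTF1 had −0.64 and −0.13 on arrays 1 and 2. The other 4 genes of that group were unmeasured.

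Mating type genes did not give a check of the strain label. Of 5 genes specific to a cells, the mating type of BY4741, 4 had a value on array 1, and 0 of 4 genes specific to alpha cells were measured. The alpha mating type ORF MATALPHA2 nevertheless had −0.76 and −0.27 on arrays 1 and 2, and its silent copy HMLALPHA2 had −1.18 on array 1. Both ORFs were named after their values were seen, and whether a listed value reflects a transcript was not tested.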

How the data were processed

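RNA of the MID2extWSC1cyt strain with and without caspofungin was compared on 2-colour arrays, per the labels. The deposited table holds log2 values per ORF and array. Base 2 was read off the numbers themselves: taken as log2, 100% of the ratios on each array fell on steps of 0.0001 (tolerance 0.01 of a step), and as natural log or log10 at most 2.57% did. For scanner, background correction, normalization and the rule that left cells empty, the procedure was not given in the sources used here. Precision is limited by the number of arrays.

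ORFs were named through the RefSeq gene table of R64, by locus tag (5654) or synonym (57), and 496 were not in it. Gene lengths were taken from it too, though the array's own gene build is not stated. The deposited values were fitted with limma 3.58.1 in R 4.3.3 without further normalization: the mean of arrays 1 and 2 over 2818 ORFs, and a caspofungin and a dye term on 3 arrays over 723 ORFs. P-values were adjusted by Benjamini-Hochberg over all ORFs fitted. In the 3-array fit the estimated prior degrees of freedom were infinite and each gene got the same standard error, 0.727. On simulated data with a spread of 1.2, the 3-array fit over 723 ORFs called 4 of 50 changes of 1 and 30 of 50 changes of 2 (log2). The fit of arrays 1 and 2 over 2818 ORFs called 50 of 50 changes of 1 with a spread of 0.3 and 0 of 50 with a spread of 1.2. The prior SD that limma estimated from the real values was 1.19 on 3 arrays and 0.39 on arrays 1 and 2. No simulation was run at a spread of 0.39.

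The members, gene lists and tests were chosen with earlier results of these data known. The naming rule took every member on all 3 arrays, the 5 highest and 5 lowest cytosolic and 3 highest and 3 lowest other means of arrays 1 and 2, and, of each further tRNA list, genes on all 3 arrays and the 2 highest and 2 lowest means. The remaining measured members are given with their values too. HER2 and MSS1, on array 1 alone, were named after their values were seen. Alternatives covered centring, equal spread, quantile normalization, gene length, the reading of array 1, the dye term, shared cultures and leaving out each array.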

Additional observations from a re-analysis of the deposited data

How the results depend on the processing

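No paired analysis was possible because the arrays form a single group and each already compares both conditions. The cytosolic median on arrays 1 and 2 kept its sign under centring, quantile normalization, removal of the length trend, restriction to ORFs on all 3 arrays and the omission of ARC1 or of genes with a mitochondrial form. It was −0.24 with array 1 turned the other way and −0.41 on array 4 alone. The median of the other list was −0.17 after centring and 0.091 with array 1 turned. It was −0.47 on array 1 alone (9 genes) and −1.46 on array 4 alone, where MSE1 was the only gene. In the 3-array fit the cytosolic median was −0.082 with arrays 1 and 2 averaged as one culture and −0.31 with array 1 turned. Leaving out each array gave −0.14 to 0.53 for the cytosolic median and −0.999 to −0.31 for that of the other list. The genes covered changed with the array left out. Without arrays 1, 2 and 4 in turn there were 11, 12 and 19 cytosolic genes. The other list had MSE1 alone without array 1 or array 2, and 5 genes without array 4. The 2 ORFs called on 3 arrays became 12 with arrays 1 and 4 averaged. Without the dye term, with array 1 turned, with arrays 1 and 2 averaged, with quantile normalization, under centring with or without equal spread, among ORFs on array 1 and at least 1 other, and with the length trend removed they became 0. The omission of single arrays gave 0 to 25. No member was called in any of these 3-array alternatives. The 25 ORFs called on arrays 1 and 2 became 73 after centring, 146 after quantile normalization, 1 with array 1 turned, 11 among ORFs on all 3 arrays, 14 with the length trend removed and 70 at an adjusted p under 0.10. Members called there were 2 after centring, 3 after quantile normalization and 2 at an adjusted p under 0.10, from 0. After quantile normalization these were CRS1, VAS1 and ALA1 (limma adjusted p = 0.000298, 0.00149 and 0.0135), and TRM5 and TAD1 passed too (0.00543 and 0.0498). The 12 cytosolic genes positive throughout became 18 after centring, 0 with array 1 turned, and 11 to 18 when an array was omitted. The 1 negative throughout became 0 after centring, 3 with array 1 turned, and 1 to 3 when an array was omitted. In the other list the 1 positive gene became 2 after centring, 3 with array 1 turned, and 0 to 1 when an array was omitted. The 8 negative ones became 6 after centring, 1 with array 1 turned, and 5 to 8 when an array was omitted.

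Single genes turned sign as follows, none of them called. With array 1 turned, the means of arrays 1 and 2 were −0.49 for ALA1, −0.24 for VAS1, FRS1, THS1 and DED81, −0.15 for FRS2, −0.039 for SES1, −0.0084 for GRS1, −0.29 for KRS1, −0.16 for DPS1, −0.40 for GUS1 and YDR341C, −0.47 for MES1 and CRS1, −0.051 for WRS1, −0.13 for HTS1, −0.14 for YHR020W and −0.18 for ARC1. They were 0.091 for MSW1, 0.014 for MSF1, 0.18 for MSE1 and 0.16 for GRS2. Among the other tRNA genes they were 0.65 for GCN1, 0.28 for GCN2, −0.24 for TEF1, −0.33 for TEF2, 0.18 for TPT1, 0.22 for LOS1, 0.061 for RPP1, −0.31 for CCA1, 0.29 for TRM8, 0.033 for PUS7, 0.25 for DUS3, −0.18 for TRM1 and 0.25 for GTF1. The 3-array values were then −0.17 for VAS1, −0.34 for THS1, −0.28 for GRS1, −0.44 for KRS1, −0.31 for DED81, −0.62 for GUS1, −0.19 for HTS1 and −0.54 for YHR020W. Centring gave means of 0.11 for GLN4, 0.022 for SLM5, 0.0055 for RPP1 and 0.10 for DUS3, and 3-array values of 0.36 for SES1 and 0.092 for GLN4. With equal spread these 3-array values were 0.46 and 0.14. Quantile normalization gave 0.011 for SES1, −0.026 for HTS1 and a mean of 0.060 for DUS3. The length trend removed gave means of −0.088 for HTS1, 0.11 for GCN1, 0.011 for TPT1, 0.10 for RPP1 and 0.064 for GTF1. HTS1 on 3 arrays was −0.015 without the dye term and −0.013 with arrays 1 and 4 averaged. With arrays 1 and 2 averaged the values were −0.089 for GRS1, −0.11 for KRS1, −0.058 for GUS1, −0.082 for HTS1 and −0.17 for YHR020W. With an array left out they ranged from −0.093 to 0.46 for GRS1, −0.25 to 0.33 for KRS1, −0.26 to 0.59 for GUS1, −0.14 to 0.12 for HTS1, −0.24 to 0.69 for YHR020W and −0.25 to 0.20 for SES1. The cause of these changes was not tested.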

Other observations

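Genes that the BY4741 background carries as deletions also had ratios. Of HIS3, LEU2, MET17 and URA3, LEU2 had −0.75 and 0.16 on arrays 1 and 2, and HIS3 had −1.20 and −0.069. MET17 and URA3 were unmeasured on each of the 3. The labels do not say which markers the chimera strain carries, and what the spots for LEU2 and HIS3 measured was not tested.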
